A study of Rattus norvegicus with 4 samples.

Results

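Kinase and phosphatase gene loci are the subject here: the listed noncoding transcripts that carry the name of a protein kinase, a lipid kinase of the phosphoinositide pathway, a phosphatase, or a subunit, scaffold or regulator named with them. The rule for choosing them uses names alone and no measured values, though earlier results of these data were known when it was set. A row counted as a member when its gene name began with Map2k, Map3k, Map4k, Mapk, Mknk, Rps6k, Prk, Camk, Cdk and a digit, Csnk, Dyrk, Stk, Pik3, Pip4, Pip5, Akt, Ppp, Ptpn, Ptpr or Dusp. Ptprc and the AMPK subunit names beginning Prkaa, Prkab or Prkag were left out. Rows of 1 gene name on 1 chromosome were summed, which gave 99 loci from 131 transcripts, out of 17290 loci from 20524 transcripts in all.

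The libraries were made from total RNA of astrocytes, grown from cerebral cortices of newborn Wistar rats and kept on coverslips above neurons from which paraffin dots held them apart. Control astrocytes (2 libraries) were untreated. The other 2 libraries came from ischemic preconditioning: oxygen and glucose deprivation (OGD) for 45 min in glucose-free medium at 1% oxygen, then 24 h in normal medium and air. The series compares the lncRNA profiles of these groups, and each group is a primary culture with no transgene or knockout named in the labels. Whether replicates are separate cultures is not stated in the labels; the p-values therefore rest on library-to-library spread, which may be technical.

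Protein kinases attach phosphate to proteins and phosphatases remove it, and the balance sets the activity of most signalling pathways. In the MAPK cascade, kinases of the Map4k, Map3k, Map2k and Mapk families activate each other in that order. In the phosphoinositide branch, PI3-kinase makes the lipid that recruits Akt. In astrocytes these pathways are known to respond to growth factors, calcium, cytokines and energy stress, and calcineurin, the calcium-activated phosphatase, is known from work on reactive astrocytes. The values below are not levels of these enzymes or of their messenger RNAs. Each is the count at a listed noncoding transcript that bears the gene's name, where messenger RNA reads may also have been counted.

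Of the 99 names, 91 are current symbols and 8 are former names in the RefSeq gene table of assembly GRCr8, all of protein-coding genes, and 0 lie on a chromosome other than the tables give. The former names matter for reading the results. Map3k7ip1 and Map3k7ip2 are now Tab1 and Tab2, Map2k1ip1 is Lamtor3, Prkcb1 is Prkcb and Ppp2r4 is Ptpa. Prkcbp1 is Zmynd8, named for a chromatin reader that binds protein kinase C, and Stk22s1 is Tsks. A few names are of regulators or of proteins that only share a prefix, such as Prkcsh, the beta subunit of the glucosidase II enzyme of the endoplasmic reticulum. The member transcripts were 206 to 2810 nt long, with a median of 635 nt against 686 nt over all listed transcripts. The AceView names mark 35 of the 131 (26.7%) as unspliced, against 54.2% of the 16282 transcripts with such names. A single transcript stood at 75 loci and several at 24, with at most 6, at Pik3ip1, an inhibitor of PI3-kinase. At 17 loci a member transcript overlapped a transcript of another listed locus.

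All lncRNA counts summed to 2513804 to 2646300 per library. Member loci held 0.208% (control 1), 0.267% (control 2), 0.236% (OGD 1) and 0.196% (OGD 2) of them. The groups overlap. Scaled by TMM to CPM, read counts at a common library size, members summed to 1971 and 2796 CPM in control and 2350 and 2052 CPM after OGD. A single locus, Camk2d, set most of the spread, since the sums without it were 1969, 2146, 2150 and 2050 CPM in the same order. Noncoding transcripts at cell type marker genes were sparse: of 8 astrocyte names 3 were listed, at 24.6 to 58.0 CPM in sum per library (control 41.5 and 29.1, OGD 58.0 and 24.6), led by Gfap, while Aqp4, Aldh1l1, S100b, Gja1 and Sox9 had no listed locus. Summed CPM in control 1, control 2, OGD 1 and OGD 2 were 160, 344, 184 and 325 for fibroblast or meningeal names and 21.8, 37.1, 5.27 and 30.4 for microglia names. For neuron names they were 81.9, 110, 107 and 111, but the listed names differed: Syn1, a synaptic vesicle gene, had 2, 1, 98 and 45 counts, above both controls in both OGD libraries, and Gria2, a glutamate receptor gene, had 223, 275, 187 and 222. Sums were 2.92 to 4.52 CPM per library for oligodendrocyte lineage names and 0 to 2.50 for endothelial names, and 0 of the tested marker loci passed the threshold in edgeR's test. In bulk RNA, fewer cells of a type and less RNA per cell cannot be told apart. The part of marker levels in the results below was not tested.

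After OGD, 0 of the kinase and phosphatase loci passed the threshold of an adjusted p of 0.05, where edgeR's quasi-likelihood test called 0.0835% of all 9581 tested loci. Of the 99 members, 61 had enough counts to be tested and 38 did not. At an unadjusted p under 0.05 there were 2 members, Mknk1 (lower) and Ppp3cb (higher), or 3.28% of the tested members against 2.33% of all tested loci, and against 1.1% in the lower and 1.23% in the higher direction. DESeq2 called 0 of the 55 members to which it gave an adjusted p. At an unadjusted p under 0.05, DESeq2 had 188 of 16711 loci in all and 2 of the 99 members, Mknk1 among them. Ppp3cb was not, at an unadjusted p of 0.182 in DESeq2. The adjusted p of the tested members was 0.9999 throughout in edgeR, so no locus below is said to have changed. Log2 fold changes, OGD against control, were above 0 at 30 and below 0 at 31 of the 61. Their median was -0.010, beside -0.0018 over all tested loci, of which 4765 lay above 0 and 4816 below.

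**Figure D1:**
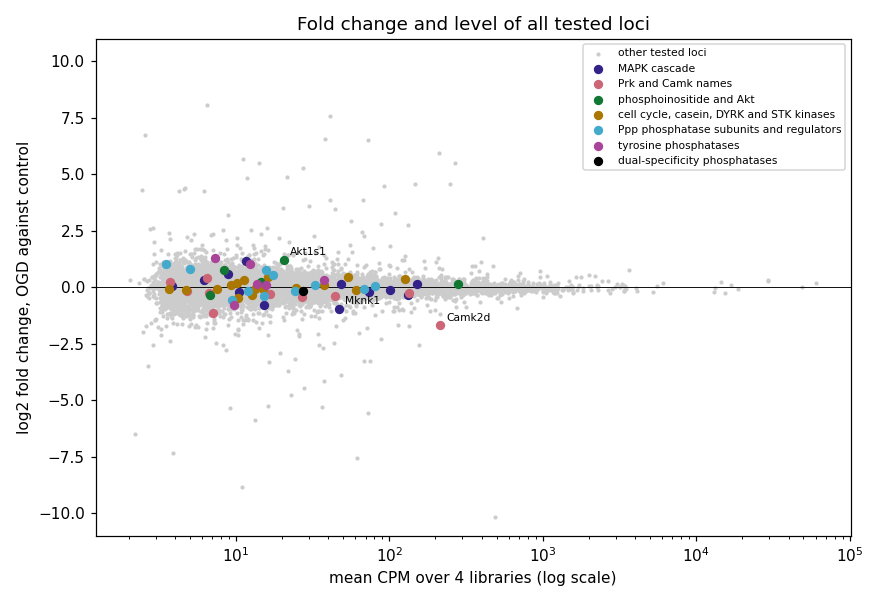
Log2 fold change of OGD against control (vertical axis) against mean CPM over the 4 libraries (horizontal axis, log scale) for the 9581 tested loci. The 61 tested kinase and phosphatase loci, coloured by role, lie between -1.69 (Camk2d) and 1.32 on the log2 scale, inside a range over all loci of -10.18 to 8.06.

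The CPM of both groups did not overlap at 13 of the tested members, 7 higher after OGD (11.5%) and 6 lower (9.84%). The same held for 28% of all tested loci, 14% higher and 14% lower. The members higher in both OGD libraries were Akt1s1, Map2k1ip1, Map4k5, Ppp1r1a, Ppp2r3a, Ppp3cb and Ptpn14. The members lower in both were Map2k2, Map2k5, Map4k4, Mknk1, Pik3ca and Ptpn11. Of the 12 MAPK cascade names tested, with Mknk and Rps6k names counted in, 4 are in the lower set and 2 in the higher set. Of the 11 Ppp names tested, 3 are in the higher and 0 in the lower. The phosphoinositide and Akt names and the tyrosine phosphatases each had 1 in either set. The other groups of names had 0 in both. Whether these groups of names differ from each other or from all loci was not tested.

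The MAPK cascade, with names beginning Mknk and Rps6k counted in, gave 18 members. Of these, 12 were tested, 6 with a log2 fold change above 0 and 6 below, with a median of -0.020. Rps6kb2 (log2 fold change 0.06) and Rps6kc1 (-0.20) are among the 12. Mknk1, the gene of the kinase MNK1 that ERK and p38 activate and that phosphorylates the cap-binding factor eIF4E, had the smallest p of all members. Its unspliced transcript (chromosome 5, 134729163 to 134730886) had 151 counts in control 1, 171 in control 2, 72 in OGD 1 and 89 in OGD 2. Both OGD libraries lay below both controls. The means were 61.5 ± 9.32 CPM for control, against 32.1 ± 7.06 CPM for OGD (SD, n = 2 per group). By edgeR the log2 fold change was -0.94 (SE 0.27, 95% interval -1.65 to -0.23), with an unadjusted p of 0.0195 and an adjusted p of 0.9999. With 1 library omitted at a time it lay between -1.18 and -0.72, and the unadjusted p passed 0.05 without control replicate 2 (0.0865) and without OGD replicate 1 (0.108).

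Map4k4 and Map2k2 had the highest mean CPM of the Map2k, Map3k and Map4k names. Map4k4, a kinase upstream of JNK (chromosome 9, 46748327 to 46756332), had 430 and 341 counts in the controls, against 349 and 245 in the OGD libraries, with a log2 fold change of -0.32 (interval -0.90 to 0.26). Map2k2, the gene of the ERK activator MEK2 (chromosome 7, 11458986 to 11475690), had 209 and 206 counts in the controls, against 194 and 156 in the OGD libraries. Its CPM were 79.1 ± 4.26 and 69.1 ± 5.68 (SD, n = 2), a log2 fold change of -0.19 (interval -0.71 to 0.32). Of the transcripts of Map2k2, only the one of 913 nt was lower in both OGD libraries. It had 157, 133, 115 and 83 counts in control 1, control 2, OGD 1 and OGD 2. In the same order the transcript of 635 nt had 48, 70, 73 and 69, and that of 206 nt had 4, 3, 6 and 4. The intervals of Map4k4 and Map2k2 lie within a 2-fold change in either direction. The same held for 14 of the 61 tested members, beside 3420 of all 9581 tested loci.

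Map2k5, the gene of the activator of ERK5 (chromosome 8, 68055978 to 68128020), was nearer to Mknk1. The 2 controls gave 49 and 52 counts, the 2 OGD libraries 37 and 20. OGD replicate 2 was the lowest of the 4 libraries, and the groups did not overlap. The log2 fold change was -0.78 (SE 0.37, unadjusted p = 0.0886 in edgeR, adjusted p = 0.9999). In the other direction, Map2k1ip1 (now Lamtor3, a scaffold that holds MEK1 and ERK at late endosomes; chromosome 2, 243172032 to 243172915) had 19 and 18 counts in the controls, against 23 and 31 in the OGD libraries, a log2 fold change of 0.61 (SE 0.38). Mapk1ip1l, the highest single-transcript name of the cascade per length, had 259, 287, 290 and 205 counts and a log2 fold change of -0.10 (interval -0.71 to 0.51). Mapk8ip1, the JNK scaffold JIP1, lay at 45.9 CPM for control, against 50.3 CPM for OGD.

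Mapk1ip1 (chromosome 1, 211196355 to 211205708) differed more between libraries of 1 group than between groups. It had 29 and 9 counts in the controls, against 77 and 8 in the OGD libraries, so that only OGD replicate 1 was high. Its log2 fold change was 1.19 and turned to -1.06 without OGD replicate 1. Another listed transcript, NONRATT003304.2, spans nearly the same interval (211196220 to 211205710) and had 96, 76, 0 and 72 counts in the same order. OGD replicate 1 is thus the highest library of Mapk1ip1 and is at 0 for its neighbour, and their sums were 125, 85, 77 and 80. Merging the locus with all 3 listed loci that overlap it, an alternative chosen after seeing the data, gave a log2 fold change of -0.28.

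Of the 6 cascade members too low to test, Map3k7ip1 and Map3k7ip2 are named because of their values, which were seen first. These are the genes of TAB1 and TAB2, the partners of the kinase TAK1. Map3k7ip1 had 1, 1, 39 and 1 counts, and Map3k7ip2 had 5, 4, 30 and 3, in control 1, control 2, OGD 1 and OGD 2. In both, a single library, OGD replicate 1, was high. Mapk3, the gene of ERK1, had 6, 3, 6 and 2 counts.

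**Figure D2:**
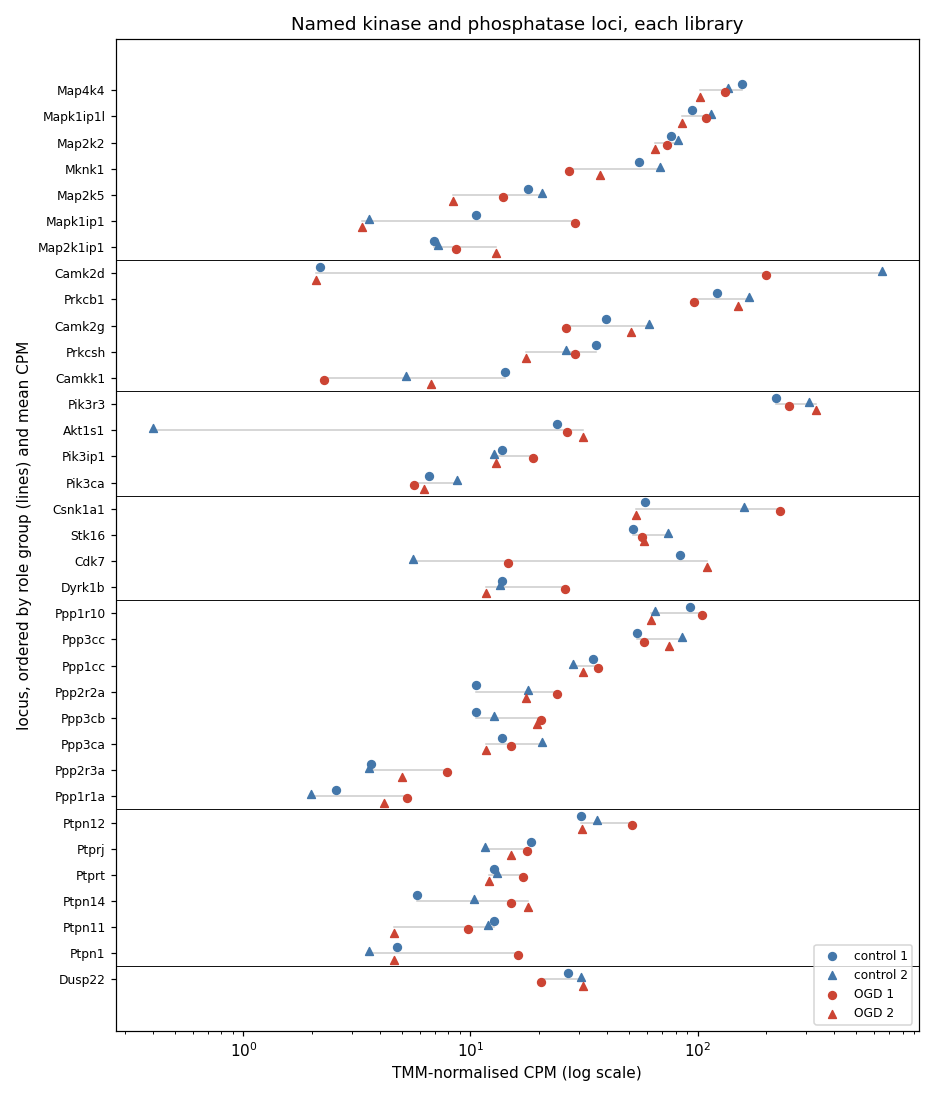
TMM-normalised CPM (log scale) of 35 named loci in each of the 4 libraries, ordered by role group and mean CPM, blue for control and red for OGD, circles for replicate 1 and triangles for replicate 2. The 4 points of most loci lie close together, whereas those of Camk2d, Akt1s1, Cdk7 and Mapk1ip1 are far apart.

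Names beginning Prk or Camk, most of them kinases of the cyclic AMP, calcium and diacylglycerol pathways, gave 17 members, of which 10 were tested, 2 with a log2 fold change above 0 and 8 below. The median was -0.27, beside -0.0018 over all tested loci, of which 4765 lay above 0 and 4816 below. Of all tested loci 28% had groups that did not overlap, against 0 of the 10 tested Prk or Camk names. Some of these names are not such kinases: Prkcsh, Prkcbp1, Prkra and Prkrip1 are among the 8 below 0 (log2 fold changes -0.41, -0.28, -0.16 and -0.26), and Prkdc, of DNA repair, and Camk2n2, an inhibitor of CaMKII, were not tested. Camk2d, the gene of the delta isoform of calcium/calmodulin-dependent kinase II, stood apart. Its unspliced transcript of 2810 nt, the longest of all members (chromosome 2, 231129951 to 231132760), had 6 and 1630 counts in the controls, against 530 and 5 in the OGD libraries. It was thus high in control replicate 2 and OGD replicate 1 and nearly absent in the other 2 libraries, a pattern that follows neither group nor replicate number. Per length, the deposited tables give 0.0856 and 22.0 FPKM for the controls and 7.56 and 0.0711 FPKM for the OGD libraries. In control replicate 2 that was above the 19.4 FPKM of Pik3r3. For Camk2d, the log2 fold change of -1.69 had a 95% interval of -8.10 to 4.72, and moved from -7.25 without OGD replicate 1 to 5.51 without control replicate 2. No other listed transcript overlaps it.

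The other members of this group varied less. Camk2g, the gamma isoform (chromosome 15, 3746596 to 3748248), had 109 and 153 counts in the controls, against 70 and 122 in the OGD libraries. Its groups overlap, with a log2 fold change of -0.38 (interval -1.47 to 0.70). Prkcb1, the gene of protein kinase C beta (chromosome 1, 192572827 to 192575184), had 335 and 424 counts in the controls, against 257 and 360 in the OGD libraries, a log2 fold change of -0.24 (interval -1.04 to 0.57). Camkk1, the kinase that activates CaMKI and CaMKIV (chromosome 10, 59603421 to 59608180), had 39, 13, 6 and 16 counts. Control replicate 1 was highest there, and the log2 fold change of -1.13 was -0.22 without it. Without Camk2d, the group summed to 268 and 306 CPM in control and 193 and 285 CPM after OGD, so the groups overlap. Prkcsh had 98, 66, 77 and 42 counts and a log2 fold change of -0.41.

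The phosphoinositide and Akt branch gave 11 members, 5 of them tested, 4 with a log2 fold change above 0 and 1 below. Pik3r3, the gene of a regulatory subunit of PI3-kinase (chromosome 5, 135132290 to 135144092), had the highest mean FPKM of the members with 1 transcript. It had 610 and 779 counts in the controls, against 672 and 801 in the OGD libraries, or 17.7 ± 2.36 and 19.4 ± 2.35 FPKM (SD, n = 2). In both groups replicate 2 was the higher library, and the CPM groups overlap, with a log2 fold change of 0.14 (interval -0.54 to 0.82). Pik3ca, the catalytic subunit p110 alpha (chromosome 2, 118857041 to 118857646), had 18 and 22 counts in the controls, against 15 in each OGD library, a log2 fold change of -0.36 (interval -1.35 to 0.63). The 6 transcripts of Pik3ip1 summed to 38, 32, 50 and 31 counts.

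Akt1s1, the gene of PRAS40, a substrate of Akt and inhibitor of mTORC1 (chromosome 1, 100846272 to 100850220), turned on a single library. It had 66 and 1 counts in the controls, against 71 and 75 in the OGD libraries. Control replicate 1 therefore lay near both OGD libraries, and control replicate 2 held 1 count. The log2 fold change was 1.23 (interval -2.03 to 4.49), 0.28 without control replicate 2 and 6.02 without control replicate 1. In the last setting its adjusted p in edgeR was 0.174.

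Names beginning Cdk and a digit, Csnk, Dyrk or Stk, most of them kinases, gave 20 members, 16 of them tested. The median log2 fold change was -0.035. Cdk5rap1 (log2 fold change -0.10), Cdk5rap2 (0.12) and Stk22s1 (not tested) are counted here but are not names of kinases. In 0 of the 16 did the groups not overlap, beside 28% of all tested loci. Cdk7, the kinase of the CDK-activating complex and of the transcription factor TFIIH (chromosome 2, 30710644 to 30735489), had 231 and 14 counts in the controls, against 39 and 265 in the OGD libraries. Its spliced transcript of 1273 nt carried this pattern, with 218, 3, 29 and 247 counts, while the other, of 316 nt, had 13, 11, 10 and 18. Its log2 fold change of 0.47 had an interval of -3.16 to 4.11 and lay between -1.60 without OGD replicate 2 and 3.48 without control replicate 1.

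Csnk1a1, the gene of casein kinase 1 alpha, a negative regulator of Wnt signalling (chromosome 18, 56908631 to 56918360), was high in the libraries in which Cdk7 was low. It had 162 and 403 counts in the controls, against 611 and 129 in the OGD libraries. Both of its transcripts followed this order, the one of 1515 nt with 47, 216, 374 and 42 counts and the one of 1000 nt with 115, 187, 237 and 87. The shorter of them overlaps dawfar, with 1099, 603, 1176 and 692 counts, and klawdoy, with 1832, 1107, 1775 and 1166, which were higher in both replicate 1 libraries. For Csnk1a1 the log2 fold change was 0.37 (interval -1.75 to 2.49), -1.02 without OGD replicate 1 and 1.28 without control replicate 2.

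Some other names of this group varied widely, as Stk10 with 12, 49, 14 and 29 counts and Cdk5rap2 with 14, 32, 41 and 9. Others had close replicates. Dyrk1a, a kinase gene dosage-sensitive in brain development, had 64, 66, 61 and 63 counts and the log2 fold change nearest to 0, at -0.010 (interval -0.68 to 0.66). Stk11, the gene of LKB1, the kinase upstream of AMPK, had 94 and 96 counts in the controls, against 101 and 96 in the OGD libraries. Stk16 had 143, 186, 151 and 139 counts over 3 transcripts and a log2 fold change of -0.13 (interval -0.80 to 0.53). Dyrk1b, a relative of Dyrk1a, had 38 and 34 counts in the controls, against 69 and 28 in the OGD libraries, and its log2 fold change of 0.46 turned to -0.21 without OGD replicate 1. Dyrk1a and Stk11 are named here because their values were seen to vary little.

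**Figure D3:**
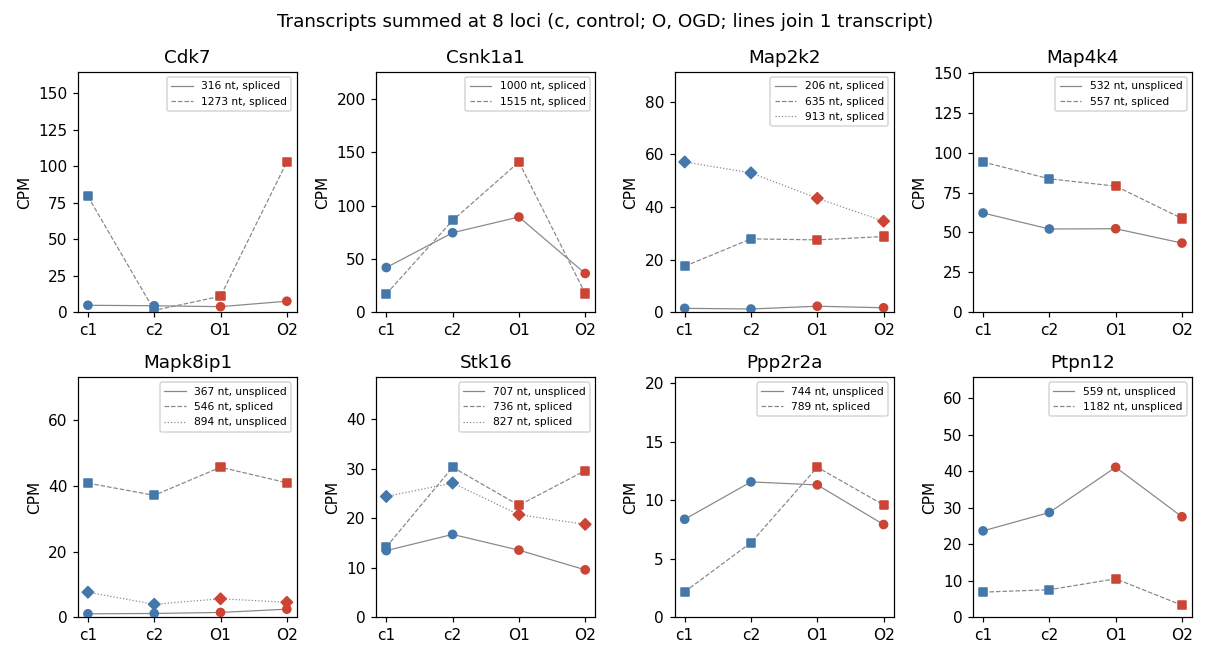
CPM of each summed transcript at 8 loci with several transcripts, by library (c1 and c2 control, O1 and O2 OGD), with transcript length and AceView splicing in the key and each vertical axis starting at 0. At Cdk7 the 1273 nt transcript alone goes from 1.20 CPM in control 2 to 103 CPM in OGD 2, whereas at Map4k4 and Csnk1a1 the transcripts keep the same order of libraries or nearly so.

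The Ppp names cover the catalytic and regulatory subunits of the serine/threonine phosphatases PP1, PP2A and calcineurin. There were 15, of which 11 were tested, 6 with a log2 fold change above 0 and 5 below, with a median of 0.081. Calcineurin has 3 catalytic subunit genes, and all were tested. Ppp3cb, the beta isoform (chromosome 15, 4233957 to 4236448), had 29 and 32 counts in the controls, against 54 and 47 in the OGD libraries. Both OGD libraries lay above both controls, at 11.7 ± 1.55 CPM for control, against 19.97 ± 0.527 CPM for OGD (SD, n = 2). By edgeR its log2 fold change was 0.78 (SE 0.29, interval 0.03 to 1.52), with an unadjusted p of 0.0447 and an adjusted p of 0.9999. It stayed between 0.65 and 0.92 with each library left out, where the unadjusted p was 0.0707 to 0.142.

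The other catalytic subunits of calcineurin stood elsewhere. Ppp3ca, the alpha isoform (chromosome 2, 241910846 to 242126989), had 38 and 52 counts in the controls, against 40 and 28 in the OGD libraries, a log2 fold change of -0.36 (interval -1.29 to 0.56). Ppp3cc, the gamma isoform (chromosome 15, 51896723 to 51920827), had 148, 214, 154 and 179 counts, a log2 fold change of -0.07 (interval -0.87 to 0.73). The intervals of the 3 isoforms overlap, and the differences between them were not tested. Merging with overlapping listed loci turned Ppp3ca to 0.10 and Ppp3cc to 0.03, both alternatives chosen after seeing the data. Ppp3cb overlaps no other listed locus.

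Among the PP2A subunits, Ppp2r3a (chromosome 8, 109511303 to 109516323) had 10 and 9 counts in the controls, against 21 and 12 in the OGD libraries, with a log2 fold change of 0.83 (SE 0.45). Ppp2r2a, which directs PP2A to its substrates (chromosome 15, 43674691 to 43733177), had 29, 45, 64 and 42 counts. Its spliced transcript of 789 nt had 6 and 16 counts in the controls, against 34 and 23 in the OGD libraries, while the unspliced transcript of 744 nt had 23, 29, 30 and 19. The locus had a log2 fold change of 0.55 (interval -0.46 to 1.56), and -0.04 when merged with the overlapping locus dajaw. Among the PP1 subunits, Ppp1r1a, the gene of protein phosphatase inhibitor 1 (chromosome 7, 145147278 to 145149879), had 7 and 5 counts in the controls, against 14 and 10 in the OGD libraries, over 3 transcripts. Its log2 fold change was 1.04 (SE 0.48, unadjusted p = 0.0858 in edgeR), on counts near the limit for testing. Of its transcripts, only the one of 474 nt was higher in both OGD libraries than in both controls. It had 3, 0, 7 and 6 counts in control 1, control 2, OGD 1 and OGD 2. In the same order that of 641 nt had 2, 4, 6 and 3, and that of 601 nt had 2, 1, 1 and 1. Ppp1r10, a nuclear targeting subunit (chromosome 20, 3343395 to 3344002), had 254 and 163 counts in the controls, against 277 and 149 in the OGD libraries, so that both replicate 1 libraries were higher than both replicate 2 libraries. Ppp1cc, the catalytic gamma subunit (chromosome 12, 39865481 to 39866960), had 95, 71, 97 and 75 counts and a log2 fold change of 0.11 (interval -0.55 to 0.77).

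**Figure D4:**
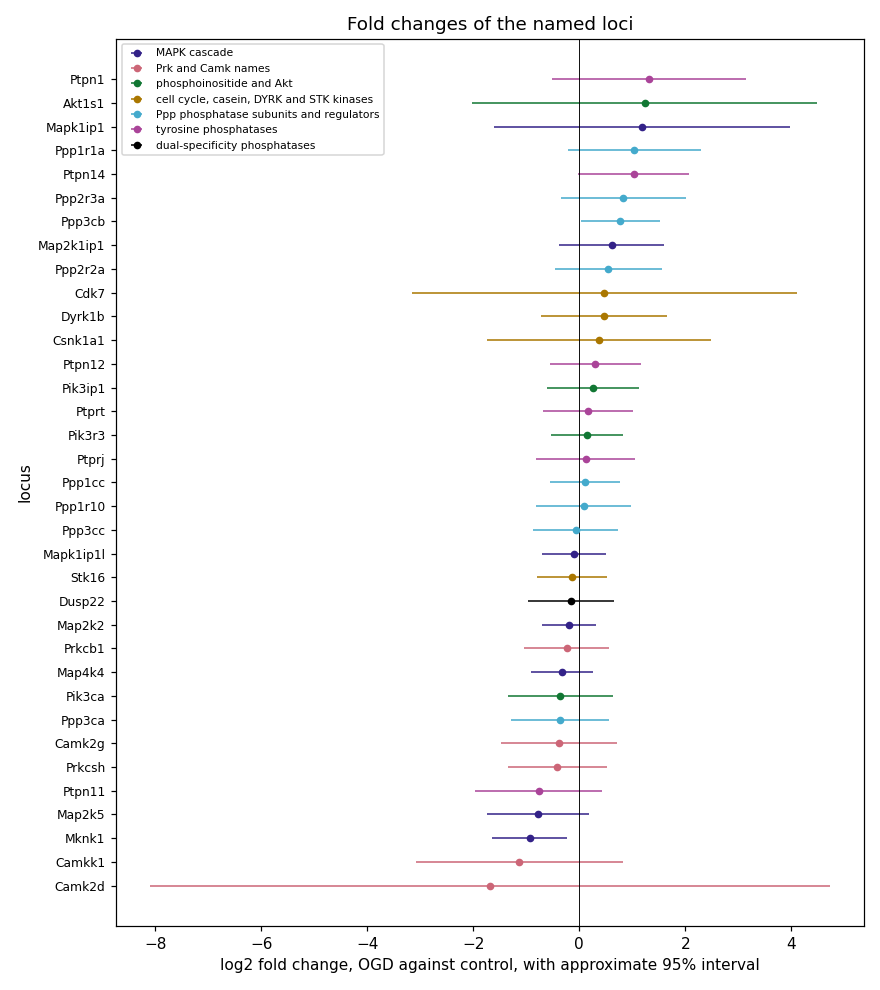
Log2 fold change of OGD against control with its approximate 95% interval for 35 named loci, from edgeR, coloured by role. Only the intervals of Mknk1 (-1.65 to -0.23) and Ppp3cb (0.03 to 1.52) lie to 1 side of 0, before any adjustment for the number of loci tested.

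Protein tyrosine phosphatases gave 13 members, 6 of them tested, 5 with a log2 fold change above 0 and 1 below. Ptpn14, a phosphatase that holds the growth regulator YAP in the cytoplasm (chromosome 13, 108713901 to 108714496), had 16 and 26 counts in the controls, against 40 and 43 in the OGD libraries. Both OGD libraries were above both controls, at 8.09 ± 3.21 and 16.5 ± 2.02 CPM (SD, n = 2). The log2 fold change was 1.03 (SE 0.40, interval -0.02 to 2.08), with an unadjusted p of 0.0537 in edgeR and an adjusted p of 0.9999. It was 0.67 without control replicate 1 and 1.501 without control replicate 2.

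Ptpn1, the gene of the insulin and leptin receptor phosphatase PTP1B (chromosome 3, 164665509 to 164697019), had 13 and 9 counts in the controls, against 43 and 11 in the OGD libraries. Only OGD replicate 1 was high. Its log2 fold change of 1.32, the highest of all tested members, was 0.15 without that library. Ptpn11, the gene of SHP2, which carries growth factor signals to the Ras pathway (chromosome 12, 40942244 to 40942664), had 35 and 30 counts in the controls, against 26 and 11 in the OGD libraries, with a log2 fold change of -0.77 (interval -1.97 to 0.43). Ptpn12 had 84, 91, 137 and 74 counts and a log2 fold change of 0.30, at -0.10 without OGD replicate 1. Of the receptor-type names, Ptprj had 51, 29, 47 and 36 counts and Ptprt 35, 33, 45 and 29, and both groups of each overlap.

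Dual-specificity phosphatases, which inactivate MAP kinases among other substrates, gave 5 members, and only Dusp22 was tested. It had 74 and 77 counts in the controls, against 54 and 75 in the OGD libraries, a log2 fold change of -0.16 (interval -0.98 to 0.66). Dusp5, the nuclear phosphatase of ERK, had 7, 4, 10 and 3 counts, Dusp12 11, 2, 4 and 3, Dusp3 4, 2, 2 and 3, and Dusp19 2, 0, 3 and 3. These fell below the filter on low counts.

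The spread between libraries of 1 group was compared with that of all tested loci. The control libraries differed by over 2-fold at 17 of the 61 tested members (27.9%), against 16.8% of all tested loci, and the OGD libraries at 14 (23.0%), against 15.1%. The median fold between libraries was 1.42 in control and 1.39 after OGD for members, beside 1.32 and 1.29 for all tested loci. The difference exceeded 4-fold within a group at 7 members, namely Akt1s1, Camk2d, Cdk5rap2, Cdk7, Csnk1a1, Mapk1ip1 and Stk10, or 11.5% against 6.91%. Of these 7, only Akt1s1 had groups that did not overlap. An absolute log2 fold change of 1 or more was found at 7 members, also 11.5%, against 4.43% of all tested loci, and the smallest p of these was that of Ptpn14.

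**Figure D5:**
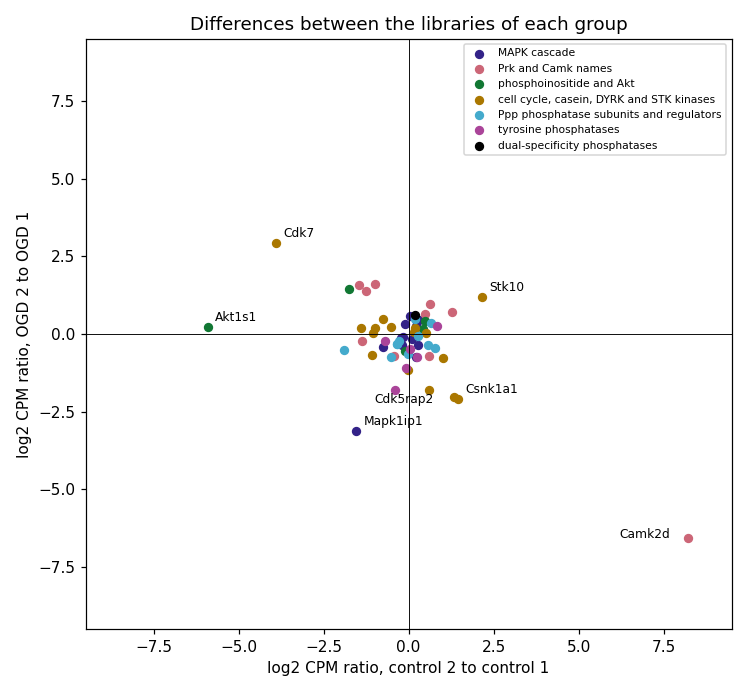
Log2 ratio of CPM between replicate 2 and replicate 1, in control (horizontal axis) and after OGD (vertical axis), for the 61 tested members. Loci near the centre have similar replicates. Camk2d, Cdk7 and Csnk1a1 lie in quadrants where the ratio has opposite signs in the 2 groups. Other members lie there too, Cdk5rap2 and Pip4k2c among them.

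Other genes of the same pathways, from a list of 97 names that holds no member, were read from the same fit. Of these, 27 had a listed locus and 23 were tested. By edgeR 0 passed, 0 had an unadjusted p under 0.05, and DESeq2 called 0. The log2 fold change was above 0 at 13 and below 0 at 10, with a median of 0.057. The smallest p was that of Pde10a, a phosphodiesterase gene, with 127 and 78 counts in the controls, against 27 and 58 in the OGD libraries (log2 fold change -1.17, unadjusted p = 0.0658). Stat3, a transcription factor of reactive astrocytes, had 59 and 65 counts in the controls, against 44 and 48 in the OGD libraries. Its log2 fold change was -0.37 (interval -1.10 to 0.36). The groups of Stat3 did not overlap, which held for 28% of all tested loci. Among these other names, the same was seen at Pde10a and Tsc2 (lower after OGD). It was also seen at Ptk2b, Pak1, Inppl1 and Akap1 (higher).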

How the data were processed

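The deposited tables give, per the file headers, whole-number read counts and FPKM values for the same 20524 transcripts in each of 4 libraries. The submitters' processing notes list HISAT2 and StringTie but no version. Which program counted reads, and whether by strand, is not given in the sources used here, so sense and antisense reads cannot be told apart. The build listed there is mm9, of mouse, but the identifiers are of rat; positions are copied from the tables and no build is attached. The FPKM deposited by the authors were used only to show levels per length.

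Counts were summed per gene name and chromosome and the whole table was fitted in edgeR 4.0.16 under R 4.3.3 (filterByExpr, TMM, quasi-likelihood F test on group alone, Benjamini-Hochberg adjustment over 9581 loci). Standard errors (size of the log2 fold change over the root of F) and the 95% intervals built on them are approximate. Depth was 2513804 to 2646300 lncRNA counts per library. Only the edgeR fit, without its filter, was tested on counts simulated with known fold changes. The other steps were not tested in this way. Alternatives were DESeq2 1.42.0, other scalings and filters, unsummed transcripts, the replicate number as a block, overlapping loci merged and each library left out. Members and lists were chosen with earlier results of these data known. Named loci are those past the threshold (0), the 10 per direction with the smallest p, the 3 of each role group with the highest mean CPM, and any with at most 3 counts in both libraries of 1 group and at least 20 in both of the other (0), 36 in all. Others are named where a count of 5 or fewer, a group's most or least variable values, or non-overlap brought them up. Some, such as Rps6kb2, Rps6kc1, Mapk8ip1, Prkra and Prkrip1, are named only as further examples of a prefix or role group. All of these others were chosen after their values were seen. Some loci, 1 of the named among them, are not reported here.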

Additional observations from a re-analysis of the deposited data

How the results depend on the processing

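The count of 0 kinase and phosphatase loci and of 0 loci of the 97 other signalling names past the threshold held under every alternative run, among them the rule of a 2-fold change plus an unadjusted p under 0.05. Over all loci the count of 8 became 39 in DESeq2, 0 when no loci were filtered out (403 at an unadjusted p under 0.05), 1 with transcripts as deposited, 21 with the replicate number as a block and 159 by 2-fold change plus unadjusted p, and 0 to 12 with a library left out (0 without control replicate 1, control replicate 2 or OGD replicate 1); the cause was not tested. Under the replicate block 0 members passed. An unadjusted p under 0.05 in edgeR was found at 3 of the 61 tested members, beside 441 of all 9581 tested loci. Mknk1 stood at -0.95 (adjusted p = 0.628 in edgeR). Libraries that share a number deviated from their group mean with a correlation of 0.300 over loci. What the number stands for is not labelled. Of 391 values of the 36 named loci under alternatives, 362 kept their direction, 0 newly passed and 29 changed sign, at 20 loci, none of which had passed. Merging loci that overlap, an alternative added with the data in view, turned Mapk1ip1 to -0.28, Ppp2r2a to -0.0435, Ppp3ca to 0.10 and Ppp3cc to 0.0297. The other changes of sign came with a library left out, where the lone library is assumed to vary like the other group. The ranges were -7.25 to 5.51 for Camk2d, -0.93 to 0.0286 for Camk2g, -1.60 to 3.48 for Cdk7, -1.02 to 1.28 for Csnk1a1, -0.50 to 0.13 for Dusp22, -0.21 to 0.92 for Dyrk1b, -1.06 to 2.17 for Mapk1ip1, -0.27 to 0.0660 for Mapk1ip1l, -0.0263 to 0.50 for Pik3ip1, -0.0744 to 0.41 for Pik3r3, -0.0201 to 0.27 for Ppp1cc, -0.33 to 0.41 for Ppp1r10, -0.36 to 0.31 for Ppp3cc, -0.59 to 0.0583 for Prkcb1, -0.10 to 0.63 for Ptpn12, -0.17 to 0.51 for Ptprj, -0.0839 to 0.39 for Ptprt and -0.36 to 0.15 for Stk16; the cause was not tested. Transcripts as deposited give no single value at loci with several transcripts. With 2 libraries a group, the intervals of 14 of the 61 tested members lie within a 2-fold change, beside 3420 of all 9581 tested loci.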
